A study of Mus musculus with 6 samples.

Results

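Fibroblast growth factors (FGFs) and their receptors were compared between neonatal (postnatal day 2, PND2) and adult (4 month) aortic valves of wild type C57BL/6J mice. The 10 genes were chosen by symbol from the 46983 genes listed: 7 ligands (Fgf1, Fgf2, Fgf7, Fgf9, Fgf10, Fgf16 and Fgf18) and 3 receptors (Fgfr1, Fgfr2 and Fgfr3). RNA-seq was performed on 3 libraries at each age, and each library was a pool of aortic valves from 5 to 6 mice that carried no transgene and received no treatment. Whole valve tissue was sequenced, so that fewer cells of a type and less RNA per cell cannot be told apart. The comparison addressed how ligand and receptor transcripts of the growing neonatal valve differ from those of the adult valve.

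FGFs are secreted proteins that bind receptor tyrosine kinases together with heparan sulfate, and the receptors signal mainly through the RAS-ERK, PI3K-AKT, PLCγ and STAT routes. The part of a receptor outside the cell is built of immunoglobulin-like domains. The C-terminal portion of the third of these domains is encoded by either of 2 alternative exons, IIIb or IIIc, and this choice sets which ligands bind. IIIb forms are typical of epithelia, whereas IIIc forms are typical of mesenchyme. Fgf7 and Fgf10 bind chiefly the IIIb form of Fgfr2. Fgf1 binds every receptor form. Receptor forms that lack the first immunoglobulin-like domain, which is autoinhibitory, bind ligand more tightly. In heart development, FGF signaling takes part in growth of the outflow tract, from which the aortic valve arises.

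Levels are given as RPKM, reads scaled by exonic length and by library total, so that genes can be compared per length. Library totals, inferred from the RPKM values, ran from 23810507 to 38994657 reads. Genes that reached 0.1 RPKM in at least 3 libraries entered a limma fit on log2(RPKM + 0.1), and a gene was called where its Benjamini-Hochberg adjusted p over the 25903 genes tested was below 0.05. All 10 genes passed this filter, and each was above it in all 6 libraries. The labelled tissue had its interstitial cell transcripts at both ages. The summed RPKM of 10 interstitial markers (Col1a1, Dcn and others) was 6596 to 7266 at PND2 and 8182 to 10315 at 4 months. Of these 10 markers, 4 were higher and 4 lower at 4 months. Dcn went from a mean of 1054 to 3961 RPKM, and Col1a1 from 956 to 524 RPKM. Transcripts of heart muscle were also abundant: the summed RPKM of 14 cardiomyocyte markers was 22050 to 24879 at PND2 and 8048 to 13483 at 4 months. The sum of 8 smooth muscle markers was 7441 to 8604 and 16893 to 27955, that of 12 endothelial markers 615 to 849 and 377 to 392, and that of 10 adipocyte markers 134 to 214 and 457 to 1606, at PND2 and 4 months respectively. In the same order, the sums were 245 to 301 and 505 to 653 for macrophage markers, 257 to 372 and 770 to 2072 for cartilage markers (4 of 12 tested higher and 5 lower), 159 to 186 and 239 to 281 for Schwann cell markers, 248 to 350 and 185 to 259 for mesothelial markers, and 87.0 to 154 and 16.6 to 17.3 for genes of mitosis, all 15 of which were lower at 4 months. Of the adipocyte markers, Cidec and Lep had no reads in any PND2 library, and the highest adipocyte sum, 1606, was that of 4 month replicate 2. The part of these cell types in the differences below was not tested.

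Of the 10 genes, 6 were higher and 1 was lower at 4 months. Across all genes tested, 35.8% were called, 14.7% higher and 21.1% lower at 4 months. The higher genes were Fgf1, Fgf2, Fgf7, Fgf10, Fgf16 and Fgfr1, the lower gene was Fgf18, and Fgf9, Fgfr2 and Fgfr3 were not called. In the 7 called genes the 2 ages did not overlap, which was also true of 50.0% of all genes tested. Median scaling shifted each library on the log2 scale by its median deviation from the gene means. With median scaling the same split of 6 higher and 1 lower was found. The calls over all genes went from 3810 higher and 5463 lower to 4601 higher and 4129 lower. The 10 genes had been chosen with results of these data known, so that their share of calls is a description.

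**Figure D1:**
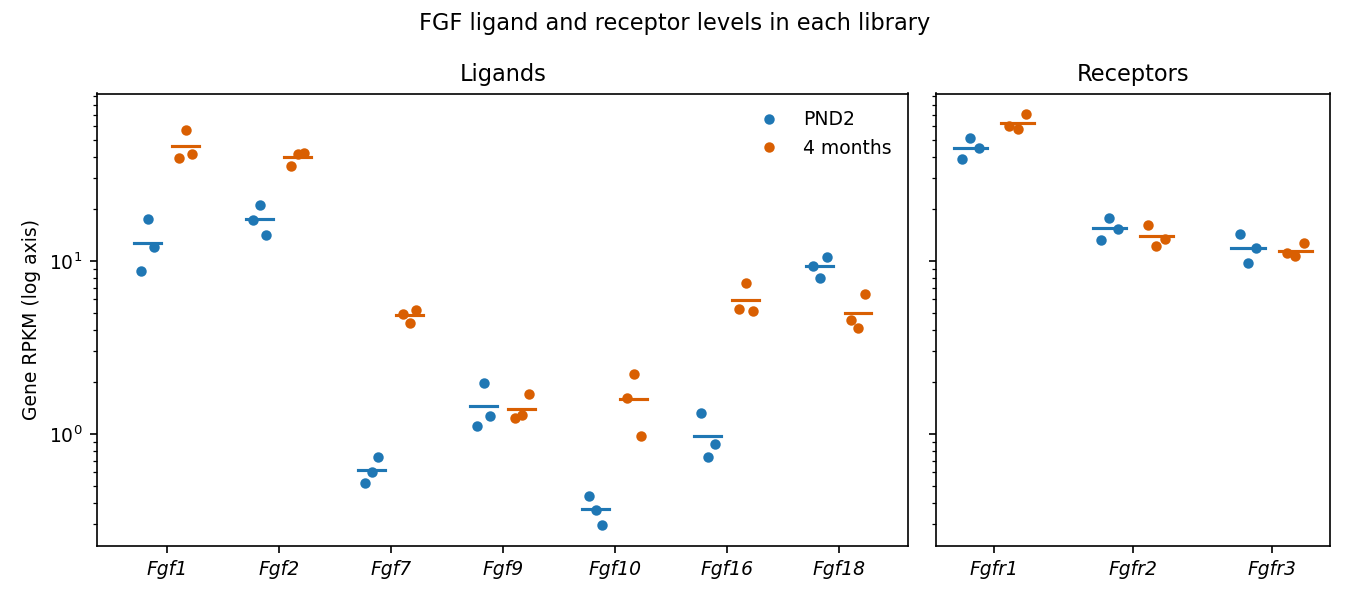
RPKM of each FGF ligand and receptor (log axis) in the 3 PND2 libraries (blue) and the 3 libraries of 4 months (orange), with a bar at each mean. Fgf1, Fgf2, Fgf7, Fgf10, Fgf16 and Fgfr1 sit higher at 4 months and Fgf18 lower, without overlap, and Fgf9, Fgfr2 and Fgfr3 overlap between the ages.

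Fgf1 and Fgf2, the prototype ligands that are released without a signal peptide, were the most abundant ligands of the adult valve. Fgf1 (minus strand of chromosome 18, position 38838673 to 38929404 of mm10) was at 8.70, 17.5 and 12.1 RPKM in the PND2 libraries and at 39.6, 57.1 and 41.3 RPKM at 4 months. Every adult library lay above every PND2 library. The mean level rose 3.61-fold from 12.7 ± 4.43 to 46.0 ± 9.61 RPKM (SD, n = 3 per age), with a log2 fold change of 1.88 (SE 0.26, adjusted p = 0.00182). Fgf2 (plus strand of chromosome 3, 37348346 to 37410108) was at 17.3, 21.2 and 14.2 RPKM at PND2 and at 35.5, 41.8 and 41.9 RPKM at 4 months. The ages were well apart, and the adult libraries lay close together. The mean rose 2.26-fold from 17.6 ± 3.47 to 39.7 ± 3.66 RPKM (log2 fold change 1.19, SE 0.16, adjusted p = 0.00156).

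Of the exonic length of Fgf2, 13.2% is shared with exons of Nudt6 on the opposite strand and Gm43439 on the same strand, and whether counting used the strand is not given in the sources used here. Nudt6 itself went from 13.0 ± 1.07 to 21.0 ± 0.862 RPKM. A 104-base internal exon of Fgf2 (37396185 to 37396288), which no exon of another gene touches, read 10.8, 23.9 and 10.2 RPKM at PND2 and 34.2, 37.2 and 24.3 RPKM at 4 months. These values did not overlap between the ages either, and the mean was 2.13-fold higher at 4 months (exact permutation test, 2-sided p = 0.1, the smallest that 3 against 3 libraries can give).

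Fgf7 and Fgf10 belong to 1 subfamily of paracrine ligands, which mesenchyme makes and epithelium receives. Fgf7 (chromosome 2, 126034658 to 126091185) was at 0.521, 0.605 and 0.737 RPKM at PND2, from 60 to 70 reads a library, and at 4.93, 4.40 and 5.23 RPKM at 4 months, from 340 to 598 reads. This was the largest fold change among the 10 genes. The mean rose 7.82-fold from 0.621 ± 0.109 to 4.85 ± 0.424 RPKM (log2 fold change 2.79, SE 0.22, adjusted p = 2.0e-04). Fgf10 (chromosome 13, 118669791 to 118792115) was at 0.440, 0.363 and 0.297 RPKM at PND2 and at 1.61, 2.21 and 0.969 RPKM at 4 months. Its adult libraries were more than 2-fold apart, yet the lowest of them was above every PND2 library. The mean rose 4.35-fold from 0.367 ± 0.0717 to 1.59 ± 0.620 RPKM (log2 fold change 1.80, SE 0.36, adjusted p = 0.00750), on 40 to 79 reads at PND2.

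Fgf9 and Fgf16 belong to another subfamily, and Fgf16 is known from heart muscle and brown fat. Fgf16 (chromosome X, 105764279 to 105774939) was at 1.33, 0.737 and 0.873 RPKM at PND2 and at 5.26, 7.46 and 5.12 RPKM at 4 months. All adult libraries were several times above all PND2 libraries. The mean rose 6.08-fold from 0.978 ± 0.308 to 5.95 ± 1.31 RPKM (log2 fold change 2.50, SE 0.27, adjusted p = 6.9e-04). Fgf9 (chromosome 14, 58070547 to 58112337) was at 1.11, 1.98 and 1.27 RPKM at PND2 and at 1.23, 1.28 and 1.69 RPKM at 4 months. Its ages overlapped throughout, and its log2 fold change of -0.02 had a 95% interval of -0.70 to 0.66 (adjusted p = 0.966).

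Fgf18 was the only gene of the 10 called lower at 4 months. It is a ligand of the Fgf8 subfamily known for its part in cartilage and bone growth. Fgf18 (minus strand of chromosome 11, 33117430 to 33147400) was at 9.40, 7.95 and 10.6 RPKM at PND2 and at 4.53, 4.10 and 6.40 RPKM at 4 months. The highest adult library was below the lowest PND2 library. The mean was 1.86-fold higher at PND2, at 9.31 ± 1.32 against 5.01 ± 1.22 RPKM (log2 fold change -0.90, SE 0.20, adjusted p = 0.0135). Without PND2 replicate 3 the fall was no longer called (log2 fold change -0.80, adjusted p = 0.0525). Its highest adult library, replicate 3, also had the highest cartilage marker sum, 2072. Without that library the log2 fold change was -1.08 (adjusted p = 0.0104).

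In Fgf1, Fgf10 and Fgf16, 4 month replicate 2 was the highest library. This library had the highest adipocyte marker sum and, among the adult libraries, the highest cardiomyocyte marker sum, 13483. Its library total was the smallest of all, 23810507 reads. The part of either cell type was not tested. Without this library the log2 fold changes were 1.72 for Fgf1 (adjusted p = 0.00709), 1.54 for Fgf10 (adjusted p = 0.0264) and 2.33 for Fgf16 (adjusted p = 0.00364), so that each was still called.

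**Figure D2:**
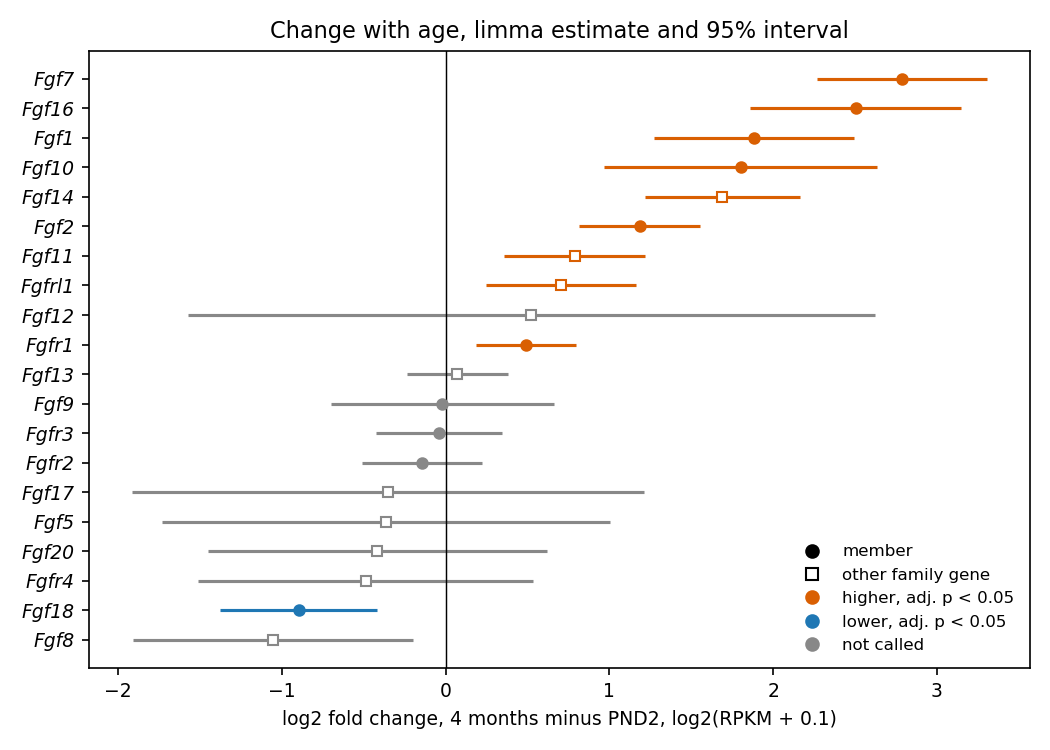
log2 fold change from PND2 to 4 months on log2(RPKM + 0.1), with the 95% interval of the limma fit, for the 10 genes (circles) and the other FGF family genes tested (squares), in order of size. Intervals of Fgf7, Fgf16, Fgf1, Fgf10 and Fgf2 lie above 0, whereas those of Fgf9, Fgfr2 and Fgfr3 span 0.

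Within the summed ligand transcripts, Fgf18 held a smaller and Fgf1 a larger share in every adult library than in any PND2 library. Summed over the 7 ligands, RPKM was 43.1 ± 6.29 in PND2 valves and 104 ± 12.9 in adult valves, 2.43-fold more and without overlap (exact permutation test, p = 0.1). Fgf18 gave 24.2, 15.8 and 26.5% of this sum at PND2 and 4.89, 3.47 and 6.24% at 4 months, while Fgf1 went from 22.4, 34.8 and 30.1% to 42.8, 48.2 and 40.3%. The difference was -17.3 percentage points for Fgf18 and 14.7 for Fgf1 (exact permutation test, p = 0.1 each), and -11.2 and 13.3 when every FGF family gene other than the receptors was in the sum (p = 0.1 each). Fgf2 held 40.7 ± 4.70% and 38.1 ± 2.75% (exact p = 0.4), a difference within the spread of the libraries. Fgf7 held 1.46 ± 0.334% at PND2 and 4.71 ± 0.869% at 4 months, and Fgf16 held 2.35 ± 0.986 and 5.66 ± 0.655%, again without overlap (exact p = 0.1 each). The share of Fgf9 was lower at 4 months, at 3.32 ± 0.562 and 1.35 ± 0.285%, also without overlap (exact p = 0.1). The level of Fgf9 itself was not called.

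By level, Fgf2, Fgf1 and Fgf18 led at PND2, at 17.6, 12.7 and 9.31 RPKM, and neighbours among them overlapped. Fgf9, at 1.45 RPKM, was below all of these and overlapped with Fgf16, while Fgf7 and then Fgf10 came last, each apart from the gene before it. At 4 months Fgf1 and Fgf2 led and overlapped. Fgf16, Fgf18 and Fgf7 followed at 5.95, 5.01 and 4.85 RPKM, not separable from one another, and Fgf10 and Fgf9 came last at 1.59 and 1.40 RPKM, also overlapping.

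**Figure D3:**
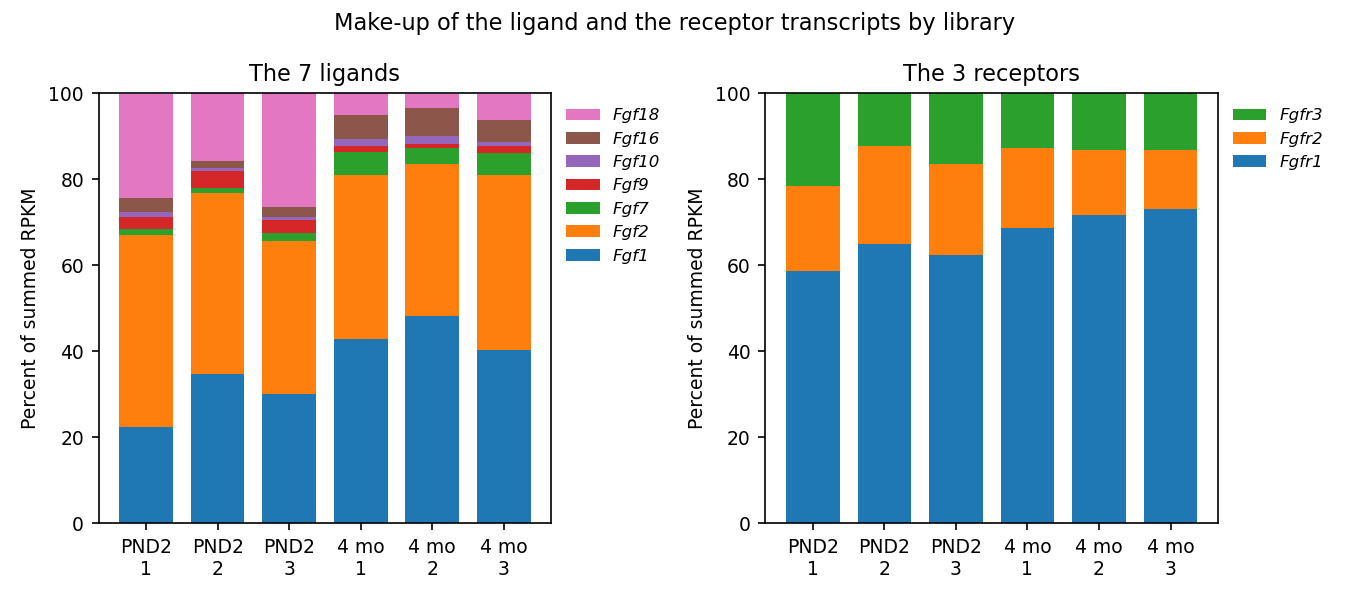
Percent of the summed RPKM of the 7 ligands (left) and of the 3 receptors (right) in each library, as stacked bars. Fgf18 shrinks from between 15.8 and 26.5% at PND2 to between 3.47 and 6.24% at 4 months, and Fgfr1 is the largest receptor in every library.

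Fgfr1 was the main receptor at both ages. Fgfr1 (plus strand of chromosome 8, 25513654 to 25575714) was at 38.9, 51.1 and 44.8 RPKM at PND2 and at 60.0, 58.2 and 70.7 RPKM at 4 months. The ages did not overlap, but the gap between the highest PND2 library and the lowest adult library was small. The mean rose 1.40-fold from 44.9 ± 6.10 to 63.0 ± 6.76 RPKM (log2 fold change 0.49, SE 0.13, adjusted p = 0.0239). This call was lost without PND2 replicate 1 (adjusted p = 0.0523), without PND2 replicate 3 (adjusted p = 0.0698) and without 4 month replicate 3 (adjusted p = 0.0820).

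Fgfr2 (minus strand of chromosome 7, 130162451 to 133123350) was at 13.2, 17.8 and 15.3 RPKM at PND2 and at 16.1, 12.3 and 13.4 RPKM at 4 months. The ages overlapped, and the log2 fold change of -0.14 had a 95% interval of -0.51 to 0.22 (adjusted p = 0.513). Fgfr3 (plus strand of chromosome 5, 33721674 to 33737068) was at 14.3, 9.68 and 11.8 RPKM and at 11.1, 10.7 and 12.7 RPKM. It overlapped as well, with a log2 fold change of -0.04 and a 95% interval of -0.42 to 0.35 (adjusted p = 0.876). For Fgfr3 the value is less certain, because 13.9% of its exonic length is shared with a gene on the opposite strand and a pseudogene, Fgfr3-ps, is close to it in sequence. Exons of other genes also share 2.67% of the exonic length of Fgf10, 2.02% of that of Fgfr1 and 4.34% of that of Fgfr2. Fgfr1 was apart from Fgfr2 at both ages, whereas Fgfr2 and Fgfr3 overlapped at both.

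As a share of the 3 receptors, Fgfr1 gave 58.6, 65.0 and 62.3% at PND2 and 68.8, 71.7 and 73.0% at 4 months. Fgfr2 gave 19.9, 22.6 and 21.2% and then 18.5, 15.1 and 13.8%. Neither share overlapped between the ages (exact permutation test, p = 0.1 each). With Fgfr4 and Fgfrl1 also in the sum, the difference in the share of Fgfr1 went from 9.20 to 2.60 percentage points (means of 44.7 and 47.3%, exact p = 0.2), while that of Fgfr2 was -4.84 points (exact p = 0.1). The share of Fgfr3 was 16.8 ± 4.58 and 13.0 ± 0.238% (exact p = 0.4). The sum of the 3 receptors was 72.3 ± 6.10 RPKM in PND2 valves and 88.4 ± 7.88 RPKM in adult valves, 1.22-fold more (exact p = 0.1). The difference between this fold and that of the ligands was not tested.

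Between the alternative exons of the third domain, IIIc was the more abundant in every receptor and every library. In Fgfr1, IIIb made up 6.57, 6.37 and 6.50% of the summed IIIb and IIIc exon RPKM at PND2 and 6.63, 6.31 and 7.61% at 4 months. The ages overlapped (6.48 ± 0.101 and 6.85 ± 0.681%, exact p = 0.5), although both exons were themselves higher at 4 months, IIIc at 109.5 ± 21.9 and 159 ± 8.47 RPKM. Fgfr3 had the largest IIIb share, at 25.6, 36.4 and 22.2% at PND2 and 27.8, 24.2 and 30.1% at 4 months, again with overlap (exact p = 0.9). In Fgfr2, IIIb was close to the limit of detection: 1, 6 and 4 reads at PND2, against 99, 104 and 91 reads on IIIc, and 0, 1 and 0 reads at 4 months, against 96, 78 and 79. A count of 0 allows up to 3 reads, or 3.12% and 3.80% of the reads in the adult libraries concerned, and the 95% Wilson interval of the highest PND2 library, 5.45%, was 2.52 to 11.4%. The shares overlapped between the ages (exact p = 0.2, where 0.1 is the smallest possible). With so few reads and 3 libraries per age, a difference could not be resolved. Intervals and limits cover counting error only. Esrp1, a splicing factor that favors IIIb in epithelia and was looked up after these values were seen, had 1 read in all 6 libraries together, and Esrp2 was at 1.09 ± 0.156 and 0.845 ± 0.173 RPKM and was not called.

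The exon of Fgfr1 that encodes the first immunoglobulin-like domain was used less at 4 months. It is shown because it went against the rest of its gene. This exon was singled out after its values had been seen. The sequence is from GENCODE M21 on GRCm38, the build named mm10 elsewhere, and is written 5′ to 3′ on the coding strand, with capitals for the 83 of its 267 bases that the corresponding exons of Fgfr2 and Fgfr3 share with it in a global alignment.
Fgfr1 D1 (chr8:25555508-25555774, plus strand): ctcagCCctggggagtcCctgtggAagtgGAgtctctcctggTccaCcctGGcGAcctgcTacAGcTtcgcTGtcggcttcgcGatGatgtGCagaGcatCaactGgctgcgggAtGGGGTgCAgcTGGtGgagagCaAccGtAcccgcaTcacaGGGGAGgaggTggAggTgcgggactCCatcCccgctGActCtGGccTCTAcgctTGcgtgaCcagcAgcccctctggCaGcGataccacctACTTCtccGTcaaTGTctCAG
This exon read 33.6, 48.7 and 47.5 RPKM at PND2 and 29.8, 26.7 and 33.3 RPKM at 4 months, from 170 to 397 reads a library. It was the only one of the 17 internal coding exons of Fgfr1 examined with a lower mean at 4 months, and the other 16 were 1.29 to 1.55-fold higher. Divided by the mean of the 3 exons just before IIIb and IIIc, which encode the second domain and the start of the third, it gave 0.443, 0.420 and 0.461 at PND2 and 0.220, 0.202 and 0.233 at 4 months.

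The ratio at 4 months was thus far from that at PND2 compared with the spread of the libraries (0.441 ± 0.0203 and 0.218 ± 0.0157, exact permutation test, p = 0.1). In limma's diffSplice test, which compares each exon with the other exons of its gene over 243348 exons, the log2 difference of this exon was -0.92 (adjusted p = 0.00223), and with voom weights on exon reads it was -0.96 (adjusted p = 0.00419). Of all exons tested, 1.31% were called in the first fit and 0.562% with voom weights. On simulated exons, a fit like the first made 511 calls in genes left unchanged, against 6 with voom weights. In Fgfr1, 6 of 46 annotated exons were called in the first fit and 5 with voom weights. Each of these was this exon or an annotated version that overlaps it, and overlapping versions share reads. With 1 exon kept where exons overlap, 2 of 20 were called both with and without voom weights. All of these calls touch this exon. A ratio within a gene shows unequal change between exons and does not say which transcripts changed.

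The corresponding exon of Fgfr2 gave ratios of 0.214, 0.311 and 0.224 at PND2 and 0.175, 0.111 and 0.0732 at 4 months, from 35 to 59 reads and from 11 to 41 reads. The ages did not overlap (0.250 ± 0.0537 and 0.120 ± 0.0513, exact p = 0.1), yet the exon was not called by diffSplice (log2 difference -0.93, adjusted p = 0.232). With voom weights on exon reads the exon was not called either (log2 difference -0.83). In Fgfr3 the ratios overlapped, at 0.923, 0.819 and 1.04 against 0.726, 0.683 and 0.821 (exact p = 0.2). The exon was not called in either fit (log2 difference -0.35, and -0.39 with voom weights). Whether the receptors differ in this respect was not tested.

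**Figure D4:**
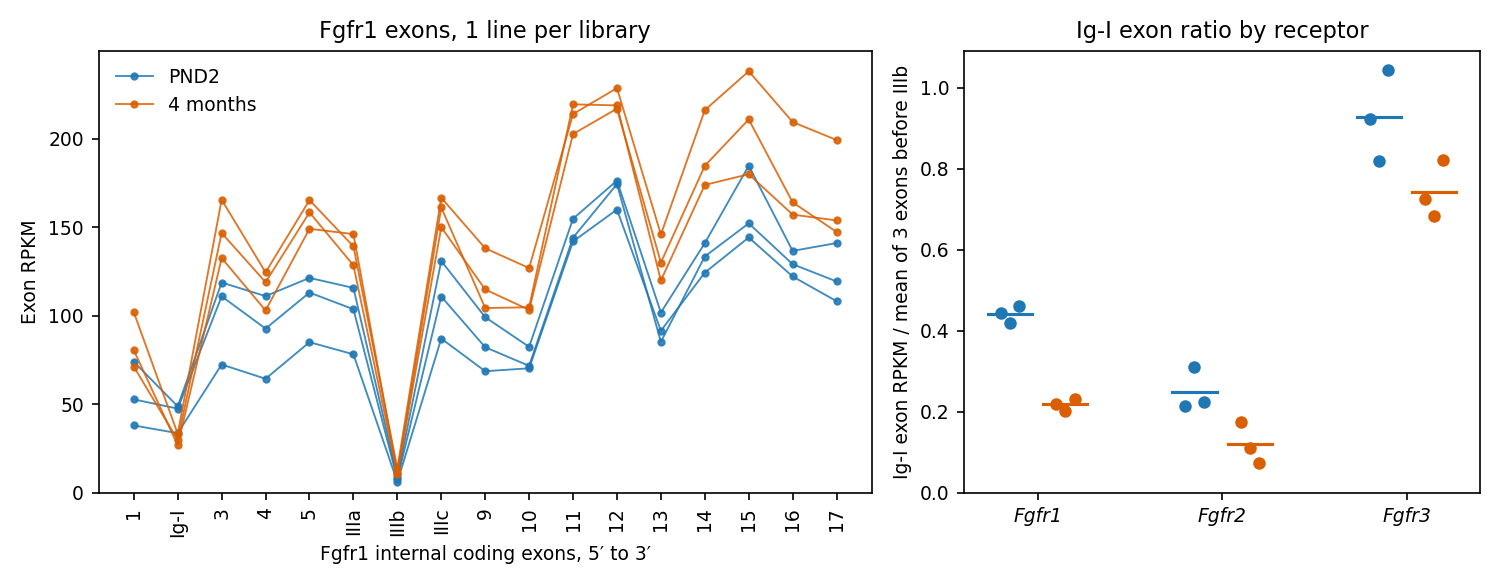
Left, exon RPKM along the 17 internal coding exons of Fgfr1, 1 line per library (blue PND2, orange 4 months), with the exon of the first immunoglobulin-like domain marked Ig-I. Right, the ratio of the Ig-I exon to the mean of the 3 exons before IIIb and IIIc, points for libraries and bars for means: Fgfr1 lies near 0.441 at PND2 and 0.218 at 4 months.

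Among 17 further FGF family genes, 10 passed the filter, and 3 were higher and none lower at 4 months. This was 30% called, beside 35.8% of all genes tested. Fgf14 and Fgf11, which encode intracellular FGF homologs that act on sodium channels rather than on FGF receptors, rose from 3.18 ± 0.606 to 10.5 ± 1.83 RPKM (adjusted p = 9.95e-04) and from 6.16 ± 1.34 to 10.5 ± 0.569 RPKM (adjusted p = 0.0147). Fgfrl1, a receptor-like protein without a kinase domain, was at 20.5, 33.9 and 28.4 RPKM and at 46.8, 37.5 and 49.0 RPKM (adjusted p = 0.0283), above Fgfr2 and Fgfr3 in every library. Not called were Fgf13, at 9.12 ± 0.543 and 9.60 ± 1.11 RPKM, and Fgf12, whose adult libraries were at 4.45, 2.45 and 0.214 RPKM. Fgfr4, the remaining kinase receptor, was at 0.499 ± 0.239 and 0.324 ± 0.167 RPKM, and Fgf5, Fgf8, Fgf17 and Fgf20 had means below 0.4 RPKM at both ages. Fgf15, Fgf21 and Fgf22 had no reads in any library, which allows up to 3 reads in each.

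The wider pathway was read from 6 lists with 96 genes tested, this family list included. Of these, 17 were higher and 21 lower at 4 months, 39.6% in all, near the 35.8% of all genes. With median scaling the split was 21 higher and 16 lower. Over all genes tested the median log2 fold change was -0.14, or -0.02 with median scaling.

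Genes that build and edit heparan sulfate, the cofactor of FGF binding, were called in both directions. In this list 6 of 19 tested genes were lower and 3 higher at 4 months (5 and 4 with median scaling), beside 21.1% lower and 14.7% higher over all genes tested. Hs6st2, a 6-O-sulfotransferase, fell from 6.28, 11.0 and 8.58 RPKM to 2.23, 1.85 and 1.98 RPKM (log2 fold change -2.01, adjusted p = 8.4e-04), and its relative Hs6st1 fell from 13.7 ± 0.810 to 7.31 ± 0.514 RPKM (adjusted p = 0.00153). Hs2st1, the 2-O-sulfotransferase, fell from 12.4 ± 1.12 to 5.53 ± 0.571 RPKM (adjusted p = 0.00107). The N-deacetylase and N-sulfotransferase genes Ndst3 and Ndst2 fell as well, by 1.44 and 0.52 on the log2 scale. Higher at 4 months were Extl1, by 1.31, Hpse, the heparanase that cleaves heparan sulfate, by 1.25, and Hs3st1, a 3-O-sulfotransferase, by 0.50. Ndst1, Hs3st3a1, Hs3st3b1 and Hs3st5, further sulfotransferases of the list that fall outside the naming rule, were not called.

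Of the co-receptors and binding proteins, 3 of 10 tested were lower and 2 higher, also with median scaling. This was 50% called, beside 35.8% of all genes tested. Flrt3, a membrane protein that binds FGF receptors, fell from 7.69 ± 1.17 to 2.19 ± 0.504 RPKM (adjusted p = 0.00114), N-cadherin (Cdh2) from 76.5 ± 6.78 to 22.9 ± 10.3 RPKM (adjusted p = 0.00287) and Nrp1 from 99.4 ± 14.8 to 61.1 ± 10.7 RPKM (adjusted p = 0.0119). Cdh2 is also a protein of cardiomyocyte junctions, and the cardiomyocyte marker sum was lower at 4 months too. Fgfbp3, a carrier of secreted FGFs, was higher (3.67 ± 0.541 and 5.50 ± 0.322 RPKM), as was Flrt1, which was named after its values were seen. Klb, the co-receptor of endocrine FGFs that is known from fat and liver, was not called (adjusted p = 0.0632) and read 0.200, 1.67 and 0.175 RPKM at 4 months, highest in the library with the highest adipocyte sum.

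Downstream of the receptors the calls went both ways. Of 28 signal transducers, 6 were lower and 3 higher (4 and 5 with median scaling), 32.1% called beside 35.8% of all genes tested. Akt1 fell from 161 ± 25.7 to 96.6 ± 6.71 RPKM (adjusted p = 0.00592), while Akt2 rose from 19.8 ± 3.69 to 27.8 ± 0.369 RPKM (adjusted p = 0.0339). Nras, Gab1, Plcg1 and Shc1 also fell, by 0.72, 0.64, 0.56 and 0.41 on the log2 scale.

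Feedback inhibitors, some of which FGF signaling induces, gave 2 lower and 2 higher of 12 tested (1 and 3 with median scaling). In this list 33.3% were called, beside 35.8% of all genes tested. Spry1 was at 36.7, 43.4 and 36.6 RPKM and at 28.3, 18.3 and 23.6 RPKM (log2 fold change -0.75, adjusted p = 0.0124), and Spry2 fell by 0.38 (adjusted p = 0.0437). Spred2 and Spred3 rose by 0.68 and 0.73. Not called were Spry4, with a log2 fold change of 0.29 and a 95% interval of -0.21 to 0.80, and Dusp6, the ERK phosphatase, at -0.26 with an interval of -0.50 to -0.02 (adjusted p = 0.0900).

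Of 17 ERK target transcription factors and genes, 4 were higher and 4 lower (4 and 3 with median scaling). In this list 47.1% were called, beside 35.8% of all genes tested. Higher were the immediate early genes Fos, at 6.25, 6.81 and 7.47 RPKM at PND2 and 97.2, 32.3 and 39.6 RPKM at 4 months, Egr3 and Egr1, by 1.56 and 1.19, and Phlda1, by 1.23. Lower were Bmp4, Myc, Elk3 and Ier3, by 1.25, 1.17, 1.12 and 0.64. The FGF-induced ETS factors were not called: Etv4 was at 5.09 ± 2.26 and 2.26 ± 1.26 RPKM (adjusted p = 0.0711) and Etv5 at 8.02 ± 2.59 and 10.2 ± 1.83 RPKM (adjusted p = 0.272).

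**Figure D5:**
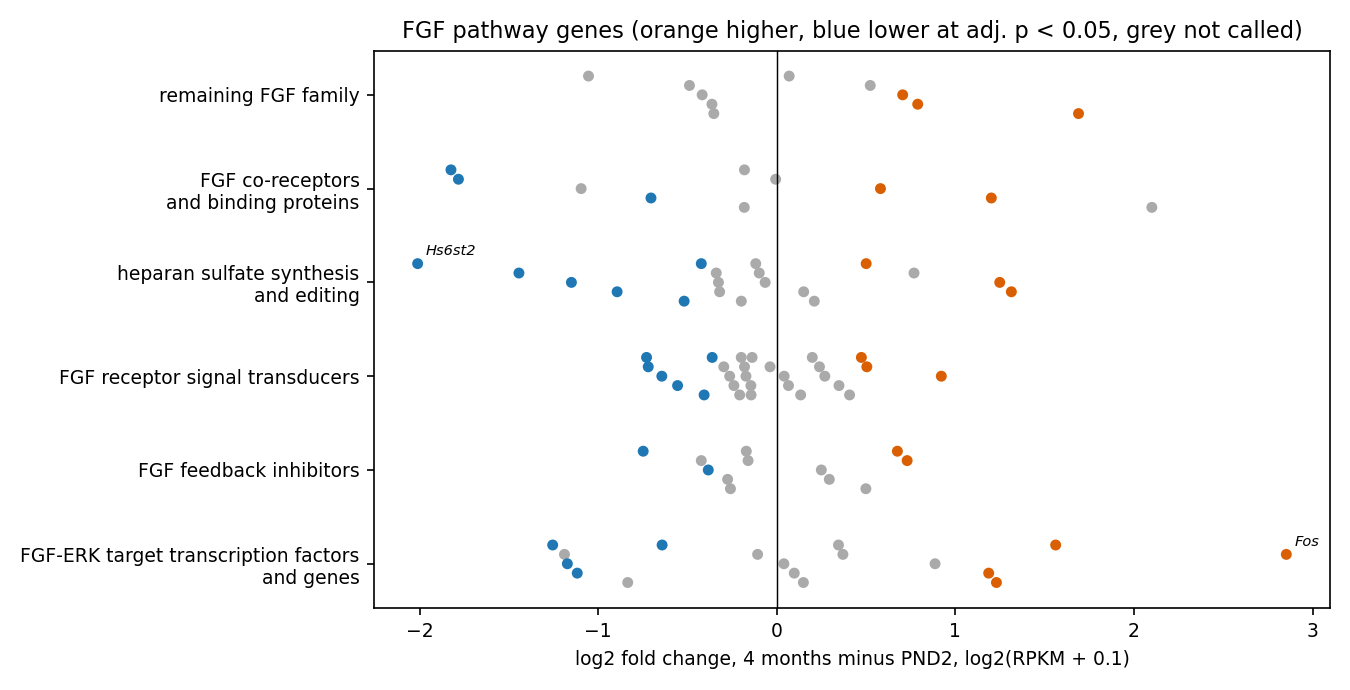
log2 fold change from PND2 to 4 months of each tested gene in the 6 FGF pathway lists, 1 dot per gene, orange where called higher, blue where called lower and grey where not called. Higher and lower calls stand side by side in 5 of the 6 lists, and Hs6st2 at -2.01 and Fos at 2.85 are the farthest out.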

How the data were processed

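RNA-seq was performed on aortic valves of C57BL/6J mice, with 3 libraries of pooled valves at PND2 and 3 at 4 months, which were grouped by their labels. Per the labels, libraries were made from total RNA with a TruSeq Stranded kit. After quality filtering and trimming by the authors, reads were placed on mm10 by TopHat 2.1.0 and counted by easyRNASeq on genes and exons of Ensembl release 83. The authors deposited gene and exon RPKM. Each library total was inferred from these values, taking the smallest nonzero product of exon RPKM and exon length as a single read. Whole reads were then recovered from every value with the exonic length and the library total (within 0.01 of a whole number in 100% of values).

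For genes, log2(RPKM + 0.1) was fitted by limma 3.58.1 (R 4.3.3), using eBayes with its trend option. A log2 fold change is on this scale, which understates changes of low genes, whereas a change given as N-fold is the ratio of mean RPKM. Shares and exon ratios were compared by 2-sided exact permutation tests over libraries. Exons that reached 1 RPKM in at least 3 libraries were tested by diffSplice. The limma and diffSplice fits were tested on simulated data with 200 planted changes. For diffSplice these were 160406 exons, with 1 exon kept where exons overlap, not the 243348 exons of the reported fits. DiffSplice on exon RPKM recovered 180 of the 200 and made 511 calls in genes left unchanged. With voom weights on exon reads it recovered 200 and made 6 such calls, so that both are given. The planted exon changes were larger than the difference reported for the Fgfr1 exon. They lay in exons with more reads than the Fgfr2 exon had. Recovery of smaller changes, or of changes in exons with few reads, was not tested. The members and lists were chosen with earlier results of these data known. Named were all members, the other family genes that passed the filter, Spry1, Spry2, Spry4, Dusp6, Etv4 and Etv5, and from each other pathway list up to 5 rises and 5 falls whose mean reached 1 RPKM at the higher age. Alternatives were pseudocounts of 1 and 0.01, filters, a floor of 10 reads, median scaling, quantile normalization, no trend, the per-gene unequal-variance test of the study's methods, a replicate block, and each library left out. Voom on recovered reads was added after the data were seen. Exon sequences came from GENCODE M21. A few genes and sequences covered by these rules are not reported here.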

Additional observations from a re-analysis of the deposited data

How the results depend on the processing

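The number of the 10 FGF genes called was 7 with the main settings, 5 to 7 when 1 library was left out, and 6 or 7 under every other setting but the per-gene unequal-variance test, which called 2 (Fgf7 and Fgf16). With that test the calls of the 6 pathway lists went from 38 to 11 and those of all genes from 9273 to 3408. Left-out libraries gave 27 to 38 and 6447 to 8688. Among 169 combinations of a gene with a setting, 150 kept direction and side of the threshold, 10 lost the call and 9 turned direction, all 9 in genes that were not called. Fgf9 had a log2 fold change of 0.10 with median scaling, 0.055 with quantile normalization, and from -0.18 to 0.21 with a library left out. Fgfr3 had 0.082 with median scaling, 0.029 with quantile normalization, and from -0.18 to 0.097 with a library left out. Fgfr1 also lost its call without the trend (adjusted p = 0.0595), and the cause was not tested. The share of Fgf2 rose by 1.30 percentage points when every FGF family gene other than the receptors was in the sum. That sum also holds the intracellular homologs Fgf11 and Fgf14, which are not ligands of FGF receptors. With a library left out, the difference in IIIb share ranged from -0.0077 to 0.644 percentage points for Fgfr1 and from -3.61 to 3.47 for Fgfr3. An RPKM filter of 1 left Fgf10 out. With a pseudocount of 1 the log2 fold changes of the low genes shrank, to 0.90 for Fgf10, 1.85 for Fgf7 and 1.81 for Fgf16, and each was still called.

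Same-numbered libraries did not deviate together (correlations of 0.044, -0.061 and -0.16), and differently numbered ones ranged from -0.18 to 0.23. No pairing by number was seen. With 3 libraries per age these correlations cannot exclude it. With a replicate block, 7 of the 10 genes, 29 pathway genes and 7167 of all genes were called. With 3 libraries of pooled mice per age, the spread between single animals is not seen.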
